A study of Mus musculus with 212 samples.

Results

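Bmal1-/- mouse skin fibroblasts kept at 32 °C were compared with Bmal1-/- mouse skin fibroblasts kept at 37 °C. All 48 libraries of these courses were used, 24 at 32 °C and 24 at 37 °C, of 212 libraries in the series. Bmal1 (gene symbol Arntl) encodes a transcription factor of the circadian clock. Per the labels, all cells were of the C57BL/6 strain, were grown to confluence, received 100 nM dexamethasone for 15 min and were then moved into HEPES-buffered medium at the stated temperature. The control course at 37 °C carries the same Bmal1 deletion and the same dexamethasone step. The series description puts the first harvest 48 h after dexamethasone, so CT0 is not the time of that step. Each course holds 1 library per time point, from CT0 to CT46 in steps of 2 h, and libraries were matched by CT label, that is by time, which is what a CT pair means below. The labels name 3 wells per time point and genotype, and do not say whether wells were pooled or whether a genotype came from more than 1 animal. Time points therefore stand in for replicates, and p-values reflect only how these libraries scatter within a course, which may be partly technical. The temperature cannot be told apart from anything else that differed between the courses, such as plates or sequencing runs. Bmal1-/- libraries at 27 °C (24) and WT libraries at 32 and 37 °C (24 each) are given where they show how the difference behaves.

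Values are FPKM, the authors' read counts scaled to transcript length and library. Estimated depth was 24.2 to 31.6 M reads per library at 32 °C and 18.8 to 30.2 M at 37 °C, with medians of 26.9 M and 24.9 M. In the Bmal1-/- courses at 32 and 37 °C every library correlated with its course median at 0.979 or more on the log2 scale. In the WT courses at these temperatures the lowest correlation was 0.9759. At 27 °C a single Bmal1-/- library, CT14, stood apart, with the lowest correlation of its course, 0.906, so medians are used for that course. All 9 fibroblast markers averaged above 1 FPKM, and their sum ran from 9617 to 11188 FPKM at 32 °C and from 8163 to 11509 FPKM at 37 °C. Keratinocyte markers summed to 2.26 to 3.51 FPKM at 32 °C and 1.21 to 2.2 FPKM at 37 °C, endothelial markers to 2.03 to 2.96 FPKM and 1.21 to 2.42 FPKM, and melanocyte and Schwann markers to 1.94 to 3.5 FPKM and 2.44 to 5.54 FPKM, in the same order. Most of the keratinocyte sum at 32 °C was Cdh1, E-cadherin, which averaged 2.09 FPKM at 32 °C and 0.534 FPKM at 37 °C. Arntl itself (ENSMUSG00000055116, GRCm38 chromosome 7, 113207465 to 113314126) was still read in Bmal1-/- cells, at a median of 7.21 FPKM at 32 °C and 5.98 FPKM at 37 °C. WT medians were 6.23 FPKM at 32 °C and 6.33 FPKM at 37 °C, so the gene-level value does not check the genotype label. The labels do not name the deleted exons.

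Mildly cooled mammalian cells make more of the cold-inducible RNA-binding proteins CIRBP and RBM3, which bind and stabilise messenger RNAs, and heat shock proteins are controlled by a heat-sensing transcription factor, HSF1. Sterol synthesis is set by SREBP2, which INSIG1 retains in the endoplasmic reticulum when sterols are plentiful.

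A gene was called when limma's adjusted p (Benjamini-Hochberg, over 12655 genes averaging 1 FPKM or more) was under 0.05 and the difference at 32 °C minus 37 °C was at least 1 on the log2(FPKM + 1) scale. Both had to hold, with the same sign, in the values as deposited and after median-of-ratios scaling. By this rule 156 genes (1.23%) rose and 129 (1.02%) fell at 32 °C, 285 in all (2.25%). At these shares a short gene list would mostly hold no call or 1 call, so such counts below do not set a list apart. The counts depend on how low levels are treated: with a pseudocount of 0.1 FPKM in place of 1 they were 267 higher and 209 lower, and with a mean of at least 5 FPKM the lower count was 82. As deposited alone the split was 226 higher and 129 lower, and with scaling alone 156 higher and 166 lower. The median of all genes was 0.13 as deposited and 0.01 after scaling, and differences are given as deposited unless said otherwise. An adjusted p under 0.05 was far more common than a difference of this size, at 9648 genes as deposited. The ranges of the 24 and 24 libraries did not overlap at 1752 genes (13.8%), among them 199 of the 285 called genes. The sign was equal in all 24 CT pairs for 224 of the 285. Protein-coding genes made up 72 of the higher and 111 of the lower calls, of 10822 tested. The log2(FPKM + 1) scale understates the change of genes with low levels.

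**Figure D1:**
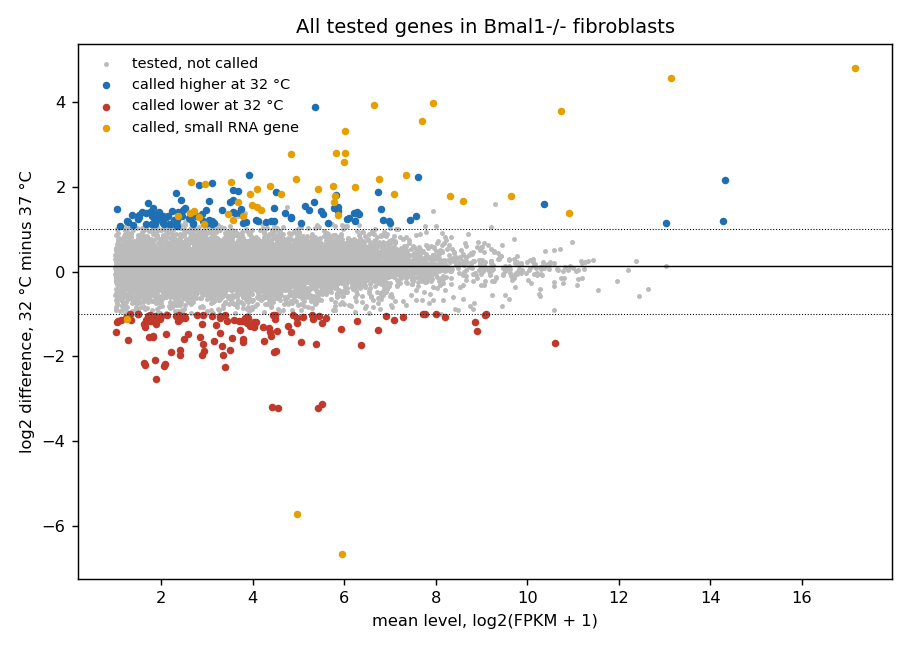
Log2 difference at 32 °C minus 37 °C in Bmal1-/- cells (vertical axis) against the mean level (horizontal axis, log2(FPKM + 1)) for 12655 genes. Blue points were called higher (156 with the small RNA genes), red points lower, orange points are called small RNA genes, and the solid line is the median of all genes, 0.13. The highest point by level is Gm26377.

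Cirbp, the cold-inducible RNA-binding protein gene (ENSMUSG00000045193, GRCm38 chromosome 10, 80165985 to 80172786), was among the clearest rises. It lay between 76.6 and 99.3 FPKM at 32 °C with a median of 87.3, against 20.1 to 28.9 FPKM at 37 °C with a median of 23.2. No library of either course entered the range of the other. The difference was 1.82 ± 0.04 (log2, SE; adjusted p = 7.94e-24) and was positive in 24 of 24 pairs. A RefSeq promoter window of Cirbp is shown because a mild cold response element, TCCCCGCC, has been described for this gene. The window shown runs from 250 bases before to 50 bases after a RefSeq transcript start that lies inside the annotated gene. Capitals mark the element, which begins 247 bases before that start on the strand of the gene. Another window of Cirbp, from 80167921, held the GC box GGGCGG but not this element. In the motif counts a gene counts when any of its windows holds the motif.
Cirbp, chr10:80167589-80167888, + strand: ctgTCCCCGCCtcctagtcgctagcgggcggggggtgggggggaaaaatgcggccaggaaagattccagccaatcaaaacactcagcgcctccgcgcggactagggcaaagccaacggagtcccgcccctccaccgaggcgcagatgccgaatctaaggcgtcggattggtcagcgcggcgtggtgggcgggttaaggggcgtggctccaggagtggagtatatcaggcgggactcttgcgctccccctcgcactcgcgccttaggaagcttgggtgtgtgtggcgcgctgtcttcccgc
TCCCCGCC, searched on both strands, was present in 7 of the 54 higher protein-coding genes with a window (13%), in 7 of 78 lower ones (8.97%), in 11.9% of tested protein-coding genes and in 6.19% of all 27025 genes with a window. It may lie within GC-rich stretches that also hold the GC box GGGCGG, which was in 66.7% of the higher and 50.0% of the lower genes, against 70.9% of tested protein-coding genes and 38.2% of all genes.

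Rbm3, the other gene of the cold-inducible pair, did not reach the threshold. It had a median of 15.3 FPKM at 32 °C and 8.22 FPKM at 37 °C, with ranges of 12.3 to 19.2 FPKM at 32 °C and 5.45 to 11.4 FPKM at 37 °C that did not overlap. Its difference was 0.86 ± 0.05 (adjusted p = 4.93e-15). The processed pseudogene Rbm3-ps, named here after its values were seen, was called with a difference of 1.89, at a median of 166 FPKM at 32 °C and 44.5 FPKM at 37 °C. Reads shared with this near-identical copy make the split between Rbm3 and Rbm3-ps uncertain. None of the 6 CLK kinase and cyclin L genes, which control splicing, was called, against 2.25% of all tested genes. Their median was 0.17 as deposited and 0.04 after scaling.

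Of 25 tested heat shock protein and chaperone genes none rose and 2 fell, with a list median of -0.07. Hsph1, encoding the HSP110 chaperone (ENSMUSG00000029657, GRCm38 chromosome 5, 149614287 to 149636376), lay between 5.49 and 12.7 FPKM at 32 °C with a median of 8.43, against 26.1 to 38.9 FPKM at 37 °C with a median of 33.5. All libraries at 32 °C were below all libraries at 37 °C. The difference was -1.88 ± 0.05 (adjusted p = 3.46e-21). Serpinh1, the collagen chaperone HSP47, fell by 1.01 on the log2 scale, with medians of 362 FPKM at 32 °C and 719 FPKM at 37 °C, but the call was lost when CT16, CT18, CT20 or CT22 was left out. Not called were Hspa4l, the highest of the list at 0.65, and Hsp90aa1, at 0.00. After scaling 18 of the 25 genes were below 0 and 7 above. In the unfolded protein response list, 1 of 22 genes fell, Calr, the endoplasmic reticulum chaperone calreticulin. Its difference was -1.03 ± 0.03, with medians of 348 FPKM at 32 °C and 732 FPKM at 37 °C, and it was lost without the 3 shallowest libraries at 37 °C. Chac1, a glutathione-degrading enzyme induced by this response, was at 0.91 and not called, but was called at 1.17 with a pseudocount of 0.1 FPKM.

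A RefSeq window of Hsph1 is given because heat shock factor binds inverted repeats of GAA. Capitals mark matches to GAANNTTC and, added after this window had been read, its tail-to-tail form TTCNNGAA. A TTCNNGAA begins 54 bases before the transcript start of the window shown. Another, 15 bases after that start, overlaps a GAANNTTC that begins 20 bases after it. In another window of Hsph1, from 149636287, the TTCNNGAA sites lie 33 bases before and 36 bases after its start. The GAANNTTC lies 41 bases after that start.
Hsph1, chr5:149636266-149636565, - strand: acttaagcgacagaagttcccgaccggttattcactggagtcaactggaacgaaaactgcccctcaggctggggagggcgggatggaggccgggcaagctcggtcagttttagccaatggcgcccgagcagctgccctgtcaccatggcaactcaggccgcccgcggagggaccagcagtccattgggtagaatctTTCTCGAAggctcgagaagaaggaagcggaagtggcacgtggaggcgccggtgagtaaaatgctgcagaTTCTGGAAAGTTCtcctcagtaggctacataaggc
GAANNTTC was in 5 of 78 lower genes with a window (6.41%) and in 4 of 54 higher ones (7.41%), against 6.95% of tested protein-coding genes and 9.04% of all genes. TTCNNGAA was in 6.41% of lower and 7.41% of higher genes, against 8.14% and 9.60%.

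Among lists with at least 10 tested members, cholesterol synthesis had the highest median. Of 22 tested genes 4 rose and none fell, and all 22 were above 0 under both scalings, with a median of 0.86 as deposited and 0.73 after scaling, against 0.13 and 0.01 for all genes. Insig1, the sterol sensor that retains SREBP, lay between 44.8 and 57.8 FPKM at 32 °C with a median of 51.1, against 13.1 to 21.3 FPKM at 37 °C with a median of 16.8. The ranges did not overlap and the difference was 1.54 ± 0.04 (adjusted p = 2.89e-22). Fdps, the farnesyl diphosphate synthase, had a difference of 1.18 and fell short of the threshold on the first day alone, at 0.95. Sqle, Msmo1 and Lss, enzymes of the later steps, had differences of 1.12, 1.11 and 1.04 as deposited and were not called. Among 13 tested genes of fatty acid synthesis and desaturation none was called, against 2.25% of all tested genes, with a list median of 0.46. Fads1, a fatty acid desaturase, came nearest at 0.93, with medians of 108 FPKM at 32 °C and 56.4 FPKM at 37 °C.

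Lipid handling genes that respond to PPAR nuclear receptors contained the largest fall among the named protein-coding genes. Of 17 tested genes in that list 4 fell and none rose, with a median of -0.25. Angptl4, a secreted inhibitor of lipoprotein lipase (ENSMUSG00000002289, GRCm38 chromosome 17, 33773750 to 33781830), lay between 3.16 and 12 FPKM at 32 °C with a median of 7.41, against 55.1 to 99.8 FPKM at 37 °C with a median of 78.4. The ranges of the courses did not overlap. The difference was -3.22 ± 0.07 (adjusted p = 5.91e-24), and its partner Lpl, lipoprotein lipase itself, also fell. Lpl had medians of 56.9 FPKM at 32 °C and 153 FPKM at 37 °C and a difference of -1.38 ± 0.03. Fabp4, a fatty acid carrier, had a difference of -1.72, with 1.69 to 3.28 FPKM at 32 °C and 8.54 to 14 FPKM at 37 °C. Pparg, the receptor, was at -0.40 and not called, with medians of 15.8 FPKM at 32 °C and 22.3 FPKM at 37 °C. The sum of the 7 adipocyte markers was 61.7 to 91.2 FPKM at 32 °C and 146 to 228 FPKM at 37 °C. Most of it was Lpl, so the sum is not separate from this list. Over both courses 3 of the 7, Lpl, Fabp4 and Pparg, averaged above 1 FPKM, and these are also in the lipid list. Lep was at 0 in all 48 libraries, Plin1 averaged 0.029 FPKM at 32 °C and 1.78 FPKM at 37 °C, and Adipoq averaged 0.0246 FPKM at 32 °C and 0.299 FPKM at 37 °C. In bulk RNA fewer cells of a type and less RNA per cell cannot be told apart, and the part of other cells in these values was not tested.

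**Figure D2:**
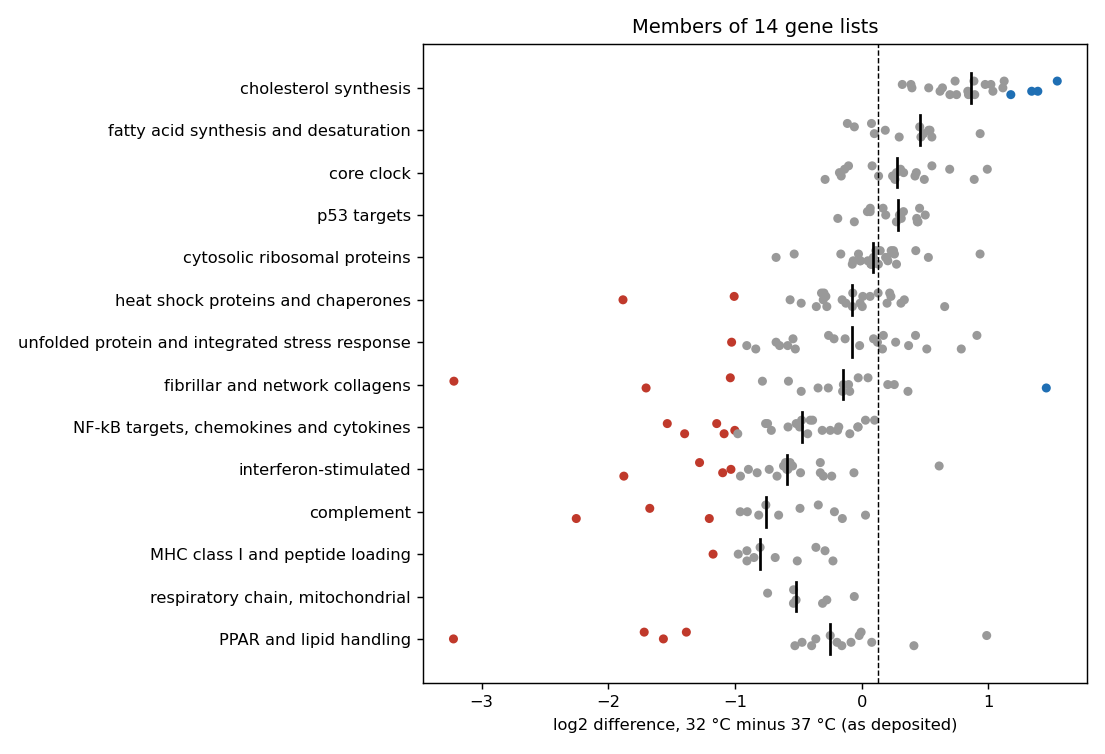
Log2 difference at 32 °C minus 37 °C in Bmal1-/- cells for the tested members of 14 gene lists, 1 point per gene, as deposited. Blue and red points were called higher and lower, grey points were not called, black bars are list medians, and the dashed line is the median of all genes, 0.13. Cholesterol synthesis genes stand to the right (median 0.86) and complement and MHC class I genes to the left (-0.76 and -0.80).

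Matrix genes moved in both directions. Of 18 tested collagen chains 3 fell and 1 rose. Col15a1, a basement membrane zone collagen (ENSMUSG00000028339, GRCm38 chromosome 4, 47208161 to 47313167), lay between 1.56 and 6.89 FPKM at 32 °C with a median of 3.47, against 26.5 to 57.8 FPKM at 37 °C with a median of 41.5. The courses were far apart, with a difference of -3.22 ± 0.10 (adjusted p = 5.04e-20). Col6a3, a chain of microfibrillar collagen VI, had a difference of -1.70 and medians of 18.5 FPKM at 32 °C and 65.7 FPKM at 37 °C. Col4a1, a basement membrane chain, had a difference of -1.04 and fell short of the threshold on the first day alone, at -0.86. Col12a1, a fibril-associated collagen, rose by 1.46 on the log2 scale, with 9.85 to 18.9 FPKM at 32 °C and 1.82 to 7.42 FPKM at 37 °C. Among 10 tested small leucine-rich proteoglycans, which organise collagen fibrils, 1 fell. That gene was Lum, lumican, at a median of 11.7 FPKM at 32 °C and 33.2 FPKM at 37 °C, with a difference of -1.40. Epyc, epiphycan of the same list, was at -0.86 and passed with a pseudocount of 0.1 FPKM, at -1.09. None of 17 matrix proteases and inhibitors was called, against 2.25% of all tested genes. Adamts12, a metalloprotease among them, lay between 2.01 and 2.62 FPKM at 32 °C and between 3.44 and 6.72 FPKM at 37 °C, lower at 32 °C in 24 of 24 pairs. Its difference was -0.84, and -1.06 and called with a pseudocount of 0.1 FPKM.

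Tnnt2, encoding cardiac troponin T (ENSMUSG00000026414, GRCm38 chromosome 1, 135836354 to 135852260), had the largest rise among the named protein-coding genes. It lay between 12.4 and 39.3 FPKM at 32 °C with a median of 25, against 1.93 to 5.89 FPKM at 37 °C with a median of 4.13. The difference was 2.29 ± 0.09 (adjusted p = 3.94e-18). Skeletal muscle markers did not move with it: the sum of 6 was 0 to 0.171 FPKM at 32 °C and 0.0497 to 0.298 FPKM at 37 °C, and Myod1 was at 0 in all 48 libraries. Lmo7, a LIM domain protein of the actin cytoskeleton, followed with 2.1 ± 0.08, at 8.75 to 18.9 FPKM at 32 °C and 1.01 to 4.14 FPKM at 37 °C. S100a4, a calcium-binding protein and fibroblast marker, lay between 1691 and 2250 FPKM at 32 °C and between 520 and 856 FPKM at 37 °C, a difference of 1.60 ± 0.04. The 14 tested contractile and YAP target genes held no call, against 2.25% of all tested genes, with a median of 0.38. Acta2, smooth muscle actin, came to 0.86, with medians of 151 FPKM at 32 °C and 85.9 FPKM at 37 °C and ranges that overlapped by a narrow margin.

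**Figure D3:**
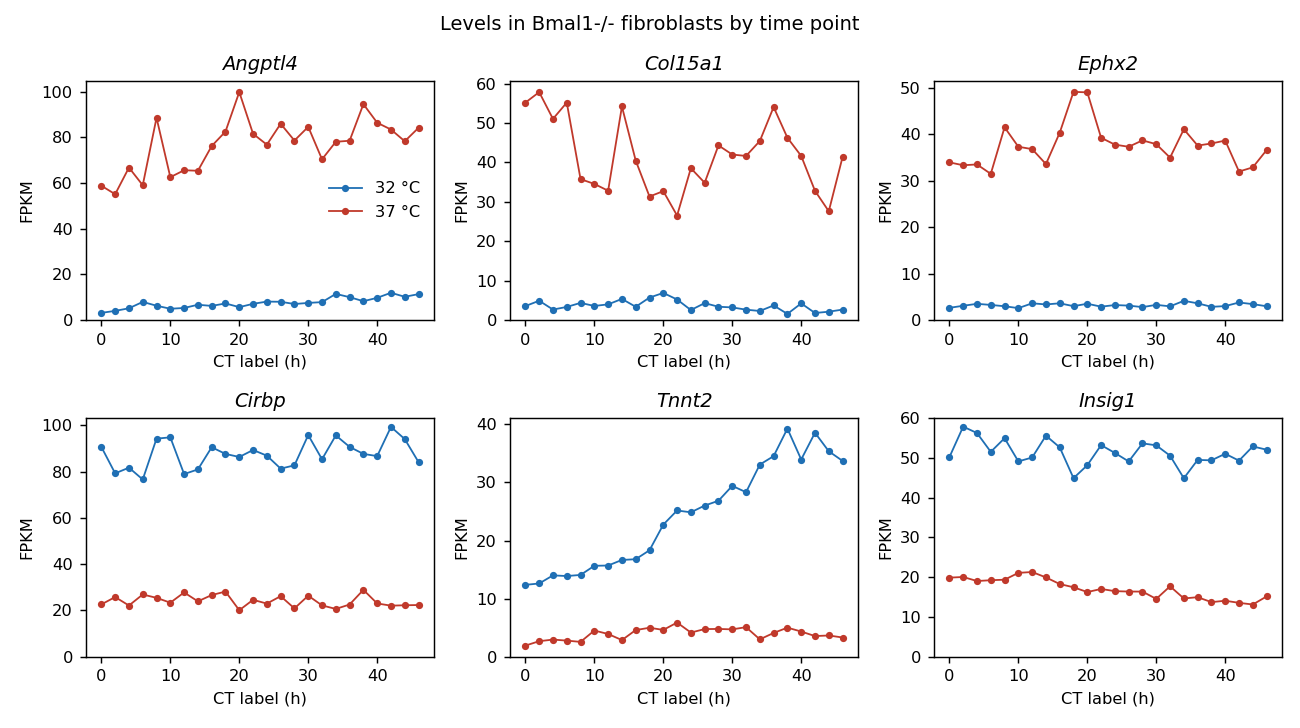
FPKM (vertical axes) by CT label in hours (horizontal axes) in Bmal1-/- cells at 32 °C (blue) and 37 °C (red) for 6 genes, 1 point per library. Angptl4, Col15a1 and Ephx2 were lower and Cirbp, Tnnt2 and Insig1 higher at 32 °C at every time point, and Tnnt2 climbed along the 32 °C course (lowest 12.4, highest 39.3 FPKM).

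In the lists of innate defence genes every call was a fall, where 1.02% of all tested genes were called lower. Of 13 tested complement genes 3 fell and none rose, with a median of -0.76 as deposited and -0.89 after scaling. C3, the central component, lay between 375 and 1078 FPKM at 32 °C with a median of 737, against 1731 to 3059 FPKM at 37 °C with a median of 2409. No library overlapped, and the difference was -1.67 ± 0.04 (adjusted p = 3.33e-22). C7, a subunit of the membrane attack complex, had a difference of -2.25 ± 0.04, with 1.03 to 4.34 FPKM at 32 °C and 7.12 to 24.5 FPKM at 37 °C. Clu, clusterin, which restrains that complex, had a difference of -1.20 and medians of 7.71 FPKM at 32 °C and 19.4 FPKM at 37 °C. Cfb, factor B of the alternative pathway, was at -0.96 and not called, but passed with a pseudocount of 0.1 FPKM, at -1.01, and with scaling alone, at -1.09.

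Interferon-stimulated genes gave 4 falls and no rise among 23 tested, with a median of -0.59. Oas2, an antiviral oligoadenylate synthetase, lay between 1.13 and 3.11 FPKM at 32 °C with a median of 2.18, against 6.74 to 17.4 FPKM at 37 °C with a median of 10.6. All libraries at 32 °C were lower, and the difference was -1.88 ± 0.07 (adjusted p = 2.03e-18). Oasl2 and Ifit1 had smaller differences of -1.10 and -1.03, and for both the ranges of the courses overlapped. The Ifit1 call was lost when CT34 or CT38 was left out and stood at -0.91 on the first day alone. Ifit2, a gene of the same family, was above 0, at 0.61, and not called. Among 11 tested MHC class I and peptide loading genes 1 fell, Psmb9, an immunoproteasome subunit, at medians of 5.63 FPKM at 32 °C and 14 FPKM at 37 °C. All 11 were below 0 under both scalings, with a median of -0.80 as deposited, and B2m, the invariant light chain, was at -0.91, with medians of 1078 FPKM at 32 °C and 1957 FPKM at 37 °C. B2m passed with scaling alone, at -1.05, and H2-Q4, a class I gene, passed with a pseudocount of 0.1 FPKM, at -1.435.

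NF-kB targets, chemokines and cytokines held 5 falls and no rise among 25 tested, with a median of -0.47. All 25 were below 0 after scaling, whereas as deposited Ccl8 and Lif stood just above 0, at 0.03 and 0.10. Saa3, an acute phase apolipoprotein, lay between 122 and 371 FPKM at 32 °C with a median of 289, against 458 to 1005 FPKM at 37 °C with a median of 703. Its difference was -1.40 ± 0.06 (adjusted p = 9.29e-17). Lcn2, an iron-siderophore carrier, had a difference of -1.53 at low levels, 0.464 to 1.11 FPKM at 32 °C and 2.23 to 6.14 FPKM at 37 °C. Cxcl10, a T cell chemokine, had a difference of -1.14 and was higher at 32 °C in 2 of 24 pairs. Its range was 0.0843 to 2.37 FPKM at 32 °C and 0.834 to 4.55 FPKM at 37 °C. Ccl11, the eosinophil chemokine, had a difference of -1.09. The 8 macrophage markers summed to 11.4 to 14.8 FPKM at 32 °C and 9.67 to 15.7 FPKM at 37 °C. Most of this sum was Cd14, a lipopolysaccharide co-receptor, at 8.93 FPKM at 32 °C and 10.6 FPKM at 37 °C on average. Some markers with low levels went the other way, with averages of 1.98 FPKM at 32 °C and 1.09 FPKM at 37 °C for Cd68, 1.08 FPKM at 32 °C and 0.412 FPKM at 37 °C for Csf1r, and 0.0438 FPKM at 32 °C and 0.00473 FPKM at 37 °C for Itgam. Ptprc, the common leukocyte antigen, was at 0 in all 48 libraries.

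The RefSeq windows of Ifit1 and Cxcl10 are shown because both fell and both hold an interferon response element. Capitals mark the element, GAAA repeated after any 2 bases. Ifit1 holds it at 104 and 85 bases before the start, on the opposite strand, and Cxcl10 at 213 bases before the start, on its own strand.
Ifit1, chr19:34640639-34640938, + strand: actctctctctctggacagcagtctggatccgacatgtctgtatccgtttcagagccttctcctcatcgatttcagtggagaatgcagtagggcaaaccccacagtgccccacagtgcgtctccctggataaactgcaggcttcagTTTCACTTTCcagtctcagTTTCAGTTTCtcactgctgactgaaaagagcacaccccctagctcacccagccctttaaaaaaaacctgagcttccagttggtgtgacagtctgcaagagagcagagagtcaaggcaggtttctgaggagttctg
Cxcl10, chr5:92348840-92349139, - strand: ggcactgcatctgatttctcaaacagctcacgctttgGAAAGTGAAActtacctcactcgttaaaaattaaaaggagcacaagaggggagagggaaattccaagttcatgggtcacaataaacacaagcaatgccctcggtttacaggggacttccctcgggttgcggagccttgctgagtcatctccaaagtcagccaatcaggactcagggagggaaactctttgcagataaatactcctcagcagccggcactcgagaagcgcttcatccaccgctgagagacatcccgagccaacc
The element was in 9 of 78 lower genes with a window (11.5%) and in 1 of 54 higher ones (1.85%), against 3.78% of tested protein-coding genes and 3.99% of all genes. The 9 genes are Cxcl10, Cybb, Ifit1, Igtp, Rcn3, Saa3, Slfn8, Socs1 and Tgtp2, and 3 of them, Cxcl10, Ifit1 and Saa3, are members of the interferon or NF-kB lists. An NF-kB site, GGG and TTTCC with any 2 bases between, was in 2.56% of lower and 0% of higher genes, against 1.96% of tested protein-coding genes and 1.89% of all genes. The AP-1 site TGANTCA was in 7.69% of lower and 11.1% of higher genes, against 5.87% of tested protein-coding genes and 8.97% of all genes. A match is a description of these letters only.

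A list of genes that handle epoxides, steroids, aldehydes and retinoids held 4 falls and no rise among 16 tested genes. The falls were a pair of enzymes, Ephx2 and Cyp2f2, the carrier Rbp4 and the adipokine Rarres2. Ephx2, the soluble epoxide hydrolase (ENSMUSG00000022040, GRCm38 chromosome 14, 66084374 to 66124500), lay between 2.57 and 4.14 FPKM at 32 °C with a median of 3.17, against 31.4 to 49.1 FPKM at 37 °C with a median of 37.4. Each course kept to its narrow range, and the difference was -3.19 ± 0.04 (adjusted p = 1.96e-28). Rbp4, the retinol carrier, had a difference of -1.97 and Cyp2f2, a cytochrome P450, of -1.85. Rarres2, the chemokine-like adipokine chemerin, had a difference of -1.61 and sat at 0 to 0.565 FPKM at 32 °C, against 0.774 to 4.67 FPKM at 37 °C. Against these falls, Gsta3, a glutathione transferase, rose by 1.66 on the log2 scale, with 11.7 to 20.5 FPKM at 32 °C and 1.92 to 7.36 FPKM at 37 °C. In the list of glutathione, thioredoxin and peroxide defence genes 1 of 32 fell, Prdx4, the peroxiredoxin of the endoplasmic reticulum, at -1.06.

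Other genes with large changes had varied roles. Rgs2, which shortens G protein signalling, had a difference of -1.97, Phex, a phosphate-regulating endopeptidase, of -1.97, and Agtr2, the angiotensin type 2 receptor, of -1.89. Agtr2 was variable, with 0.266 to 2.84 FPKM at 32 °C and 2.5 to 10.7 FPKM at 37 °C, and was higher at 32 °C in 1 of 24 pairs. Ear1 and Ear2, near-identical eosinophil-associated ribonuclease genes whose reads may be split arbitrarily, had differences of -2.19 and -2.22 and at 32 °C did not exceed 0.867 FPKM, against at least 3.08 FPKM at 37 °C. Among the rises, Pcdh9, a protocadherin, had a difference of 1.70, Galnt15, a mucin-type glycosyltransferase, of 1.63, Smim4 of 1.52, Gabre, a GABA-A receptor subunit, of 1.5, Nlrc3, of the NLR family, of 1.5, and Olfr49, an olfactory receptor gene, of 1.48. Among 19 tested genes of the glucocorticoid receptor and its targets, listed because dexamethasone preceded both courses, 1 rose and 4 fell. Sgk1, a kinase of ion transport, rose by 1.2 on the log2 scale, with medians of 101 FPKM at 32 °C and 44.4 FPKM at 37 °C. The falls were Angptl4, Lcn2, Hsd11b1, the enzyme that regenerates active glucocorticoid, at -1.27, and Serpina3n, at -1.02. Angptl4 and Lcn2 were already counted above, in the PPAR and NF-kB lists. Among 21 immediate early genes Jun and Egr2 fell, at -1.17 and -1.14, while Klf4 was at 0.72 and not called. Egr3 was at -0.88 and passed with a pseudocount of 0.1 FPKM, at -1.29.

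Core clock genes held no call among 19 tested, where 2.25% of all tested genes were called. A list of this size without a call is near that share. The list median was 0.28 as deposited and 0.15 after scaling. Ciart, Nr1d2 and Rorb were among those below the filter. Nr1d1, the repressor REV-ERBα, came nearest on this scale, with 8.41 to 10.4 FPKM at 32 °C and 3.32 to 5.42 FPKM at 37 °C, at 0.99 ± 0.04. Hlf, a PAR bZIP factor, was at 0.89 with ranges that overlapped, 0.886 to 7.34 FPKM at 32 °C and 0.303 to 3.20 FPKM at 37 °C. Its medians were 2.30 FPKM at 32 °C and 0.571 FPKM at 37 °C, and with a pseudocount of 0.1 FPKM it was at 1.485 and called, so the absence of a clock call holds for a pseudocount of 1. Csnk1e, a kinase of PER proteins, was at 0.69, Per1 at 0.55, Cry1 at 0.49, Per3 at 0.42 and Per2 at -0.29. Arntl2, Npas2, Clock and Dbp lay between -0.18 and 0.24. The E-box CACGTG, the site of CLOCK and BMAL1, was in 5.56% of higher and 8.97% of lower genes with a window, against 12% of tested protein-coding genes and 8.09% of all genes.

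In several lists with a basic cellular role nothing was called, where 2.25% of all tested genes were called. No call or 1 call in lists of this size does not set them apart from all genes. None of 25 glycolysis and hypoxia genes passed both scalings, although Pdk1, the kinase that closes pyruvate dehydrogenase, was at 1.02 as deposited and 0.88 after scaling. None of 16 p53 targets, 27 cytosolic ribosomal protein genes, 24 nuclear respiratory chain genes or 11 iron handling genes was called. Some ribosomal protein genes were read at low levels. In the 32 °C library at CT0, Rps23 was at 1.26 FPKM and Rpl5 at 12.1 FPKM, against 2241 FPKM for Vim. Whether reads of these genes were lost to processed copies was not tested, so the ribosomal list may not measure their messenger RNAs. The 7 tested respiratory chain genes of the mitochondrial genome were all below 0 under both scalings, with a median of -0.52 and no call. Of 20 tested mitosis and DNA replication genes 1 rose, Chaf1b, a subunit of chromatin assembly factor 1, with 9.07 to 13.9 FPKM at 32 °C and 1.90 to 4.78 FPKM at 37 °C. Of 28 lysosomal genes 1 fell, Hexa, a hexosaminidase subunit, at -1.0, which is close to the threshold and was lost in 11 of 24 leave-one-out fits. These counts are on the log2(FPKM + 1) scale. Ube2c, a ubiquitin-conjugating enzyme of mitosis with medians of 1.14 FPKM at 32 °C and 2.39 FPKM at 37 °C, was at -0.73, and at -1.16 and called with a pseudocount of 0.1 FPKM.

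Small RNA genes, which poly(A) selection should mostly leave out, made up 44 of the higher and 3 of the lower calls, of 266 tested. Gm26377, annotated as a miRNA gene of 108 bases (GRCm38 chromosome 9, 78478528 to 78478635), lay between 208270 and 344790 FPKM at 32 °C, against 7876 to 12998 FPKM at 37 °C. It took 23.3 to 34.2% of the summed FPKM of a library at 32 °C and 1.35 to 2.36% at 37 °C. In WT cells at 32 °C Gm26377 was also the top gene of every library, with 18.8 to 24.4% of the summed FPKM. In WT cells at 37 °C it was never the top gene, and the top gene took 1.71 to 2.87%. Mir703, Mir546 and Mir6340 had differences of 4.57, 3.79 and 3.99. Scarna17 and Mir6236 were listed at 0 in all libraries at 32 °C and had medians of 127 and 52.6 FPKM at 37 °C. The share of higher calls went with annotated length: it was 19.7% of 305 genes under 200 bases, 1.72% of 755 genes of at least 200 and under 500 bases and between 0.405 and 0.778% in the longer classes. FPKM of transcripts about as short as the 101-base reads depends strongly on the effective length used, and the part of this in the small RNA values was not tested. Without genes under 500 bases, a choice made after seeing the data, 86 genes were called higher and 117 lower.

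The difference itself changed along the course for 57 genes (0.45% of those tested), with a fitted change of at least 1 on the log2 scale between CT0 and CT46. The count was 112 with a pseudocount of 0.1 FPKM and 27 with a mean of at least 5 FPKM. It moved upward for 26 and downward for 31, and 11 of the 57 also had a called level difference. For Tnnt2 the mean difference was 1.91 on the first day and 2.66 on the second, with a fitted change of 1.26 ± 0.18 (log2, SE; adjusted p = 2.46e-05). Scg2, a secretogranin of secretory granules, gave the clearest downward change, -0.98 on the first day and -1.96 on the second (adjusted p = 6.27e-11). Its level at 37 °C spread from 1.71 to 13.1 FPKM, against 0.765 to 1.88 FPKM at 32 °C. Rbp4 was at -1.70 on the first day and at -2.24 on the second. Slc16a4, a monocarboxylate transporter family member, was near -0.21 on the first day and at -1.02 on the second. Ces2e, a carboxylesterase, had a fitted change of 1.28, and Ptgds, a prostaglandin D synthase, of 1.28. Mamdc4, Zbed6, Tmsb15l, Mad2l1, Tpt1 and Ran were also named by the rule, with fitted changes of 2.51, -1.63, -1.53, -1.34, 1.35 and 1.29. Tpt1 and Ran have processed copies that may share reads, and the Tmsb15l and Mad2l1 slopes were lost in 8 and 6 of 24 leave-one-out fits.

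Levels at 27 °C are set beside these without a further test, since the 37 °C course is shared. Of 8 genes picked to show the patterns, after their values were seen, 6 had medians ordered by temperature. Median Cirbp was 163 FPKM at 27 °C, 87.3 at 32 °C and 23.2 at 37 °C. Median Pcdh9 was 46.6, 17 and 4.79 FPKM in the same order. Angptl4 was 0.226, 7.41 and 78.4 FPKM, Ephx2 0.125, 3.17 and 37.4 FPKM, C7 0.375, 2.28 and 16.3 FPKM, and Hsph1 4.53, 8.43 and 33.5 FPKM. Tnnt2 and Rbp4 broke this order. Tnnt2 had its highest median at 32 °C, with 7.32 FPKM at 27 °C, 25 at 32 °C and 4.13 at 37 °C. Rbp4 had its lowest there, with 17.8, 3.02 and 14.7 FPKM. Gm26377 also had its highest median at 32 °C, with 10820 FPKM at 27 °C, 278760 at 32 °C and 9843 at 37 °C.

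**Figure D4:**
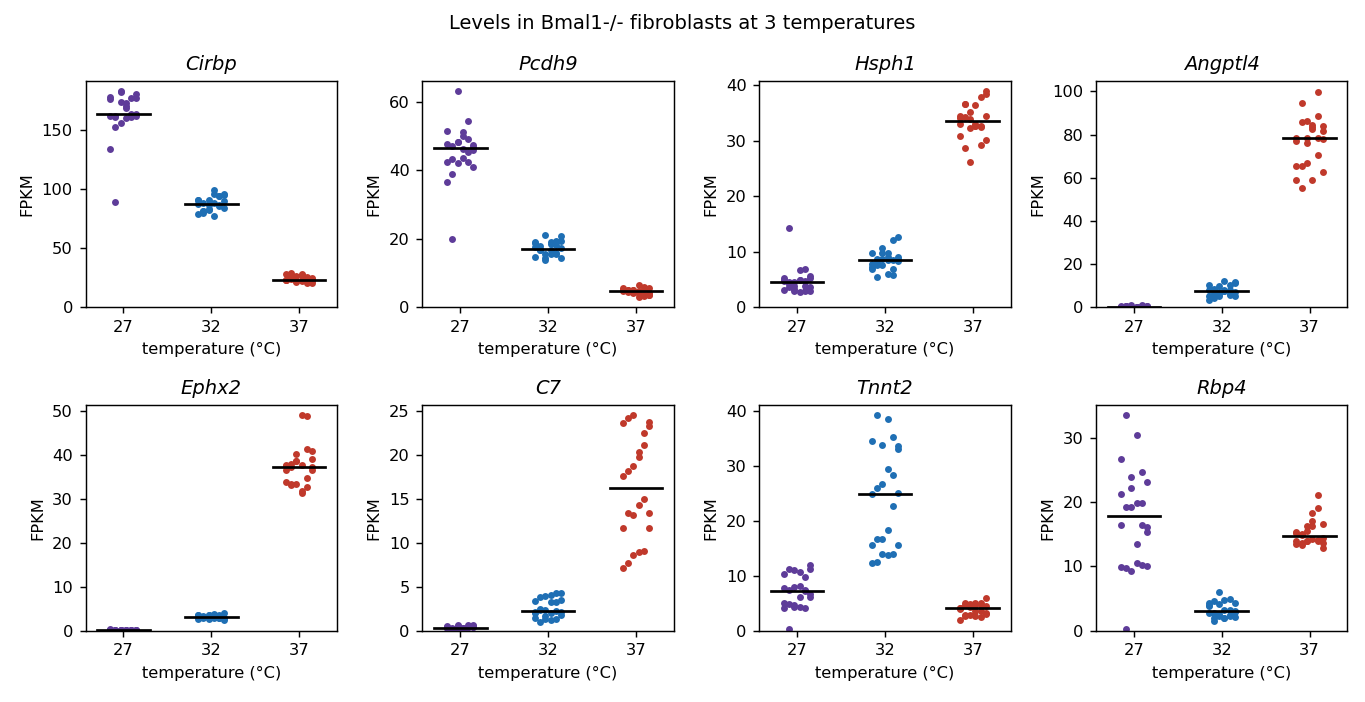
FPKM (vertical axes) of 8 genes in Bmal1-/- cells at 27, 32 and 37 °C (24 libraries each), with 1 point per library and a bar at the median. The single apart point at 27 °C in several panels is the CT14 library, and Tnnt2 and Rbp4 are highest and lowest at 32 °C.

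The same temperature step in WT cells was set beside the Bmal1-/- step over 96 libraries, with no library in both. The 2 differences differed by at least 1 on the log2 scale (both scalings, adjusted p under 0.05) at 188 of 12996 genes (1.45%), positive at 102 (0.785%) and negative at 86 (0.662%). The count was 321 with a pseudocount of 0.1 FPKM and 110 with a mean of at least 5 FPKM. Of the 183 protein-coding genes called in Bmal1-/- cells 169 had the same sign in WT, 60 also reached 1 in WT, and 45 had a called genotype difference. For the sign and the size in WT, no share over all tested protein-coding genes was computed. Angptl4 was at -3.22 in Bmal1-/- and -3.55 in WT cells, and was lower at 32 °C in every CT pair of both genotypes. Insig1 was at 1.54 in Bmal1-/- and 1.87 in WT cells, and Cirbp at 1.82 and 1.41, both higher at 32 °C in every pair of both genotypes.

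Ephx2 was lower at 32 °C in every CT pair of both genotypes, from very unequal levels. WT medians were 0.0344 FPKM at 32 °C and 0.228 FPKM at 37 °C, with at most 0.0749 FPKM in any library at 32 °C and at least 0.117 FPKM in any at 37 °C. The genotype difference was -2.90 ± 0.05 (adjusted p = 1.16e-58) and -2.06 with a pseudocount of 0.1 FPKM. Its size depends on the pseudocount, since WT levels lie far below 1 FPKM. Rgs2 went opposite ways, lower at 32 °C in 24 of 24 Bmal1-/- pairs (-1.97) and higher in 24 of 24 WT pairs (0.59). Its WT medians were 74.9 FPKM at 32 °C and 49.2 FPKM at 37 °C. Tnnt2 and Lmo7 had WT differences of 0.43 and 0.20, with genotype differences of 1.86 ± 0.11 and 1.89 ± 0.11. Tnnt2 was higher at 32 °C in 23 of 24 WT pairs too, averaging 0.443 FPKM at 32 °C and 0.0601 FPKM at 37 °C in WT cells, and its genotype difference was 0.84 and not called with a pseudocount of 0.1 FPKM. Atp1b1, a sodium pump subunit, rose in Bmal1-/- cells, with medians of 37.3 FPKM at 32 °C and 13.3 FPKM at 37 °C, against 5.74 FPKM at 32 °C and 7.62 FPKM at 37 °C in WT cells. The genotype difference was -1.59 for Fabp4, -1.55 for C7, -1.62 for Saa3 and -1.47 for Lcn2 (log2). Of the clock genes, Nr1d1 was at 0.99 in Bmal1-/- and -0.05 in WT cells, a difference of 1.04 ± 0.13 (adjusted p = 8.87e-11). Bhlhe41, a repressor of the same network, was at -0.14 in Bmal1-/- and 0.93 in WT cells, a difference of -1.07 ± 0.09.

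**Figure D5:**
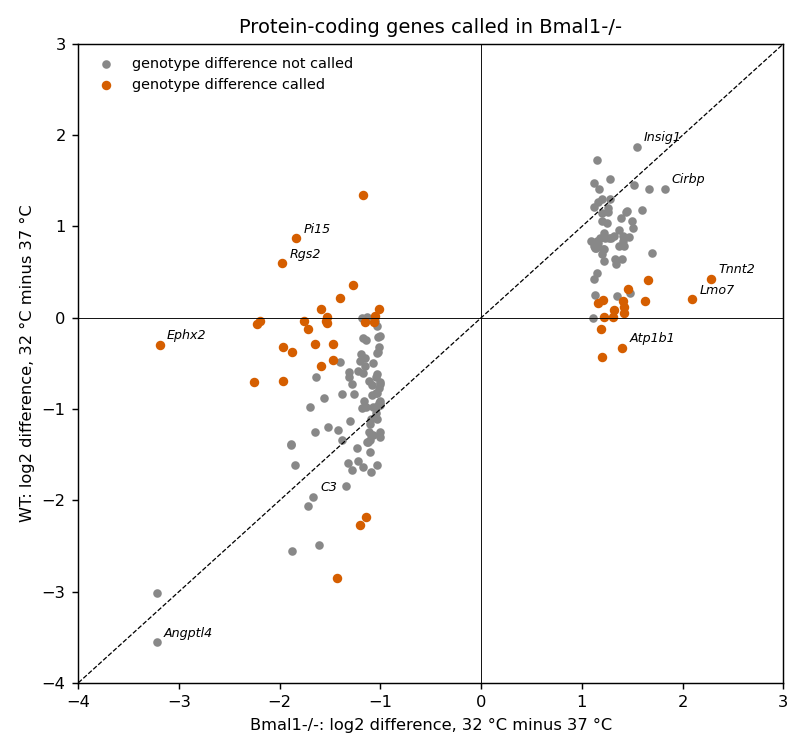
Log2 difference at 32 °C minus 37 °C in Bmal1-/- cells (horizontal axis) against WT cells (vertical axis) for the 183 protein-coding genes called in Bmal1-/- cells. Orange points (45) had a called genotype difference, and the dashed line marks equal differences. Rgs2 and Pi15 lie above the horizontal zero line, at 0.59 and 0.87 in WT.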

How the data were processed

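The authors sequenced poly(A)-selected, stranded mRNA libraries as 101-base single reads, per the labels' protocols. They deposited gene-level FPKM per library. TopHat, TopHat2 2.1.0, Cuffdiff and GRCm38 are named in the submitters' processing notes, and no annotation or setting is named there. Symbols and coordinates came from GENCODE M21 (GRCm38; 47217 of 47631 gene IDs matched). With no counts in hand, library depth was inferred from the FPKM steps of single reads: 94.9% of low values of 1357 genes lay within 0.15 of whole reads.

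FPKM were tested as log2(FPKM + 1) by limma (version 3.58.1, run under R 4.3.3 and data.table, version 1.17.8), lmFit and eBayes with trend, two-sided, with the CT label as a block. Genes had a mean of at least 1 FPKM. A call needed an adjusted p under 0.05 and a log2 difference of at least 1 in the deposited and the median-of-ratios scaled values. Slopes used the 24 paired differences. The genotype contrast, the Bmal1-/- step minus the WT step, was fitted to the log2 values of 96 libraries, with the CT label as a block. Promoter windows came from RefSeq (GRCm38.p6), 54 of 72 higher and 78 of 111 lower protein-coding genes having one. The fits were tested on simulated data, and figures were drawn with Python 3.11.15 and matplotlib 3.10.9 (pandas 2.3.3). Named are the 12 largest rises and falls, up to 4 genes per list, all core clock genes, the 3 largest small RNAs each way, and 6 genes each way for slopes and genotype differences. A few genes picked by it are not reported here; the counts still include them. Alternatives changed the scaling, pseudocount, filter, block, time terms and CT labels used. Members and the 35 lists were chosen with earlier results of these data known.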

Additional observations from a re-analysis of the deposited data

Results flagged for a closer look

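The temperature step differed between genotypes, by the contrast fitted over the libraries of the 4 courses, for the 12 genes named by the rule. Each value is the Bmal1-/- step minus the WT step (log2, 32 °C minus 37 °C). Aldh1a7, an aldehyde dehydrogenase, had -3.17 ± 0.08, with medians of 24.1 FPKM at 32 °C and 42.2 FPKM at 37 °C in Bmal1-/- cells, against 8.58 FPKM at 32 °C and 0.839 FPKM at 37 °C in WT cells. Ephx2 had -2.90, and -2.06 with a pseudocount of 0.1 FPKM, and was lower at 32 °C in every pair of both genotypes. Pi15, a peptidase inhibitor, had -2.71, with steps of -1.84 in Bmal1-/- and 0.87 in WT cells. Rgs2 had -2.57. Cilp, a cartilage matrix protein, had -2.51, with steps of -1.17 in Bmal1-/- and 1.34 in WT cells. Akr1c18, a steroid dehydrogenase, had -2.49, where it was at most 0.411 FPKM in every Bmal1-/- library and had WT medians of 12.9 FPKM at 32 °C and 1.31 FPKM at 37 °C. On the positive side Angptl7 had 2.13, Megf6 1.80 and Col23a1, a transmembrane collagen, 1.76. These 3 averaged at most 0.364 FPKM in either Bmal1-/- course and had WT differences of -2.13, -1.70 and -1.79. Lmo7 had 1.89 and Atp1b1 1.73, with Bmal1-/- steps of 2.1 and 1.40 and WT steps of 0.20 and -0.33. Tnnt2 had 1.86, but WT Tnnt2 was also higher at 32 °C in 23 of 24 pairs, at levels under 1 FPKM, and the value was 0.84 and not called with a pseudocount of 0.1 FPKM. Each of the 4 courses had 24 libraries, and the labels do not give the number of cell preparations per genotype.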

How the results depend on the processing

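The counts were 156 higher, 129 lower, 57 with a slope and 188 with a genotype difference. With a pseudocount of 0.1 FPKM they became 267, 209, 112 and 321. With a mean of at least 5 FPKM the lower, slope and genotype counts became 82, 27 and 110. Without genes under 500 bases, added after seeing the data, 86 were higher. Leaving out each CT label in turn gave 153 to 160, 124 to 130, 45 to 62 and 179 to 195. No replicate block gave 156, 129 and 187. The block matches libraries by time only: the deviations of libraries with equal CT labels correlated at a median of 0.0757 (over 0.1 in 5 of 24 pairs), and those with different labels at -0.00524. Of 1762 named level values under the alternatives run, none reversed a call. On the first day alone Sgk1, at 0.997, and Prdx4, at -0.93, missed the threshold, as did Hexa, at -0.775, Serpinh1, at -0.99, and Tmsb15l, at 0.80, on the second. Depth is an estimate, so no counting intervals are given. With 1 library per time point, neighbouring time points may be correlated, which would make p-values too small. Temperature and culture cannot be told apart.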

Other observations

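Chromosome 14 held 15 of the 183 called protein-coding genes, among 365 of its genes tested (4.11%), or 8.2% of all called genes against 3.37% of all tested genes. These 15 include Smim4, Galnt15, Ear1, Ear2, Olfr49, Clu, Ephx2, Pcdh9 and Lmo7, with 8 higher and 7 lower. Ephx2 lies beside Chrna2, a nicotinic receptor subunit gene that also fell, by 1.13 on the log2 scale in Bmal1-/- cells, and had a difference of 0.01 in WT cells. The chromosome was looked at after the named genes had been seen, and no test was made.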
